A study of Mus musculus with 7 samples.

Results

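Hedgehog signalling genes and the glypican Gpc3 were followed through ovarian RNA-seq libraries of control mice and of mice whose lineage began with prenatal exposure to anti-Müllerian hormone (AMH). The 9 genes were chosen by name. They are the ligands Ihh and Dhh, the receptor Ptch1 and the transducer Smo, the ligand-binding inhibitor Hhip, the transcription factors Gli1, Gli2 and Gli3, and Gpc3, and they are 9 of the 55487 genes counted. Symbols and positions come from GENCODE M21 on mm10. All 9 passed the filter on low counts, with between 309 and 5590 reads for a member in a library.

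All mice were C57BL/6J females, and ovaries were taken at diestrus on postnatal day 60. The 3 CNTR libraries came from offspring of dams given PBS daily from E16.5 to E18.5, in late gestation, and the study's methods describe these controls as a first generation. The 4 PAMH F3 libraries came from the third generation bred from dams given AMH at 0.12 mg/kg per day over the same days, with no further AMH given to the later generations. Treatment of the ancestors and generation therefore cannot be told apart in this comparison, and the injections are subcutaneous in the labels but intraperitoneal in the study's methods. The labels do not say whether each library came from a mouse of its own, so p-values measure the spread between these libraries.

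In the Hedgehog pathway, a secreted ligand binds PTCH1, which otherwise holds SMO inactive, and active SMO lets the GLI transcription factors switch on target genes. GLI1, PTCH1 and HHIP are themselves targets of the pathway, so that their transcripts are widely read as a measure of its activity, and PTCH1 and HHIP in turn bind the ligands and restrain the signal. In the ovary, IHH and DHH are known as products of the granulosa cells of growing follicles, and the neighbouring theca and stromal cells carry the receptors and GLI factors. Glypican-3 is a heparan sulphate proteoglycan of the cell surface that can bind Hedgehog ligands and compete for them with PTCH1.

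Each library held between 32158174 and 35485021 reads on genes. CNTR replicate 2 stood apart in base composition. Its log2 levels, taken relative to the mean of each gene over the libraries, rose by 0.31 for each 10% of GC content in the transcript. In the other libraries this slope lay between -0.13 and 0.049. Whole-ovary libraries mix cell types, so that fewer cells of a type and less RNA per cell cannot be told apart. Among the marker lists, the summed level of 6 stroma markers was 1609 to 1675 CPM (read counts scaled to library size with edgeR's TMM factors) in CNTR and 1254 to 1590 CPM in PAMH F3, with no overlap (exact permutation test, two-sided p = 0.114). It was the only sum of the 11 lists without overlap, and each of the 6 markers taken singly overlapped between the groups. Dcn, the largest part of the sum, was at 660 to 896 CPM in CNTR and 575 to 771 CPM in PAMH F3. The sum of 8 granulosa cell markers was 2673 to 4093 CPM in CNTR and 3060 to 4216 CPM in PAMH F3. Of 6 theca cell markers, Insl3 lay between 0 and 0.15 CPM, and it shares 404 of its 623 exon bases with Jak3 on the same strand. The 5 oviduct epithelium markers summed to between 2695 and 6616 CPM, and the 5 adipocyte markers to between 122 and 996 CPM, over all libraries. Over the 11 marker lists, 0 of 59 markers tested passed the adjusted threshold in edgeR and 10 had an unadjusted p under 0.05, while DESeq2 called 1, Inhbb. Of all 18779 genes tested in edgeR, 1432 had an unadjusted p under 0.05. In edgeR, 6 granulosa cell markers were higher in PAMH F3 and 2 lower, and those with an unadjusted p under 0.05 went both ways, with log2 fold changes of 0.59 for Inhbb, 0.42 for Hsd17b1, -0.24 for Foxl2 and -0.34 for Amh. Lower in PAMH F3 were 4 of 4 luteal cell and 5 of 5 endothelium markers (2 of each list with an unadjusted p under 0.05), 5 of 5 adipocyte, 5 of 6 oocyte, 4 of 5 theca cell, 4 of 6 stroma, 4 of 5 surface epithelium, 3 of 5 smooth muscle, 3 of 5 leukocyte and 1 of 5 oviduct epithelium markers.

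No member differed between the groups at an adjusted p of at most 0.05 in edgeR's quasi-likelihood test with 2 surrogate variables, which are covariates estimated from the counts. The background was the same, since 0 of the 18779 genes tested were called, or 0% of them. Genes lower in PAMH F3 with an unadjusted p under 0.05 numbered 702, or 3.74% of the genes tested, and Gpc3 was the single member among these. Among the genes higher in PAMH F3, 730 genes or 3.89% reached an unadjusted p under 0.05, with 0 members. When DESeq2 was run on the same surrogate variables, it called 54 genes lower in PAMH F3 among those that edgeR tested, or 0.288%, again with Gpc3 as the only member. The groups did not overlap for 348 genes higher in PAMH F3 (1.85%) and 451 lower (2.4%), and the groups overlapped for all 9 members. In edgeR's fit 4 members were higher and 5 lower, with a median log2 fold change of -0.017 against 0.0067 over all genes tested. Taken without sign, the median was 0.16 for the members and 0.097 over all genes tested.

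**Figure D1:**
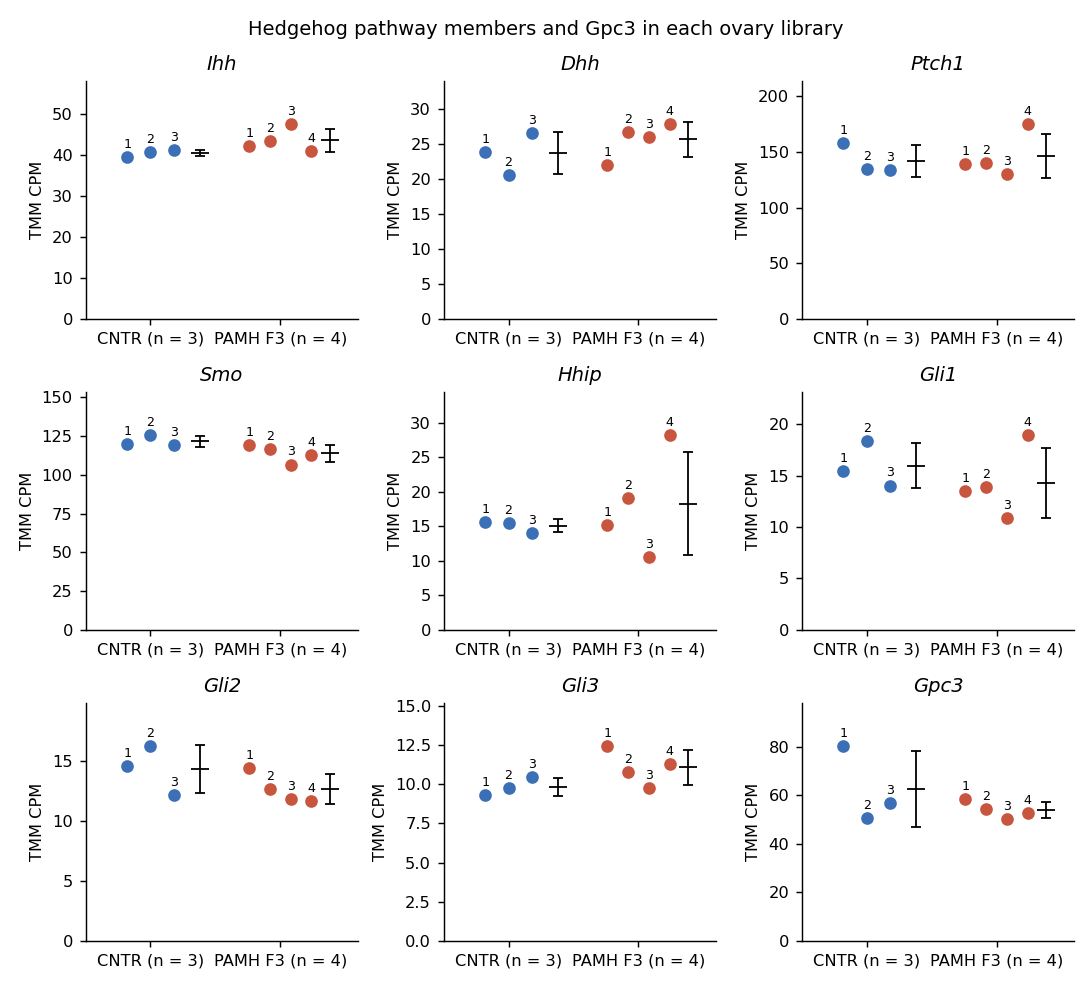
Level of each member (TMM CPM, vertical axis from 0) in the 3 CNTR and 4 PAMH F3 libraries, with a point for each library, its replicate number above it, and the group mean and SD beside the points. The groups overlap in all 9 panels, and PAMH F3 replicate 4 is the highest library for Dhh, Ptch1, Hhip and Gli1.

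Ihh, which encodes Indian hedgehog, lies on chromosome 1 from 74945315 to 74951672 on the minus strand (mm10). It was at 39.5, 40.6 and 41.2 CPM in CNTR replicates 1 to 3 and at 42.1, 43.4, 47.6 and 41.0 CPM in PAMH F3 replicates 1 to 4. PAMH F3 replicate 3 stood above the other libraries, and the groups overlapped because PAMH F3 replicate 4 fell just under CNTR replicate 3. The means were 40.4 ± 0.824 CPM (SD, n = 3) and 43.5 ± 2.87 CPM (SD, n = 4), and the log2 fold change was 0.13 with a standard error of 0.071 (edgeR, adjusted p = 0.728). It was 0.068 without PAMH F3 replicate 3. Ihh transcripts were the most GC-rich of the members at 63.6%. Once GC content and transcript length were corrected for, in a fit that had no surrogate variables, Ihh had a log2 fold change of 0.39 (edgeR, unadjusted p = 0.0412, adjusted p = 0.996).

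Dhh, which encodes desert hedgehog, lies on chromosome 15 from 98891152 to 98898540 on the minus strand. Its levels were 23.8, 20.6 and 26.5 CPM in CNTR and 22, 26.7, 25.9 and 27.8 CPM in PAMH F3. CNTR replicate 2 was the lowest library, PAMH F3 replicate 4 the highest, and the groups interleaved. The log2 fold change was 0.11 with a standard error of 0.11 (edgeR, adjusted p = 0.85), and it was 0.044 without CNTR replicate 2 and 0.19 when CNTR replicate 3 was left out. Dhh shares 546 exon bases with Rhebl1 on the same strand and 1107 with Gm49442 on the opposite strand, so its counts are less certain than those of the other members. Shorter stretches are shared with genes on the opposite strand by Gli1 (62 bases with Arhgap9, 265 with Gm47200), Gli3 (188 with Gm6556) and Hhip (175 with Gm27820). The third ligand of the family, Shh, had at most 1 read in any library and was not tested.

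Ptch1, the ligand receptor and a pathway target, lies on chromosome 13 from 63508328 to 63573598 on the minus strand. It was at 158, 134 and 133 CPM in CNTR and at 139, 140, 130 and 175 CPM in PAMH F3. PAMH F3 held both the highest library, replicate 4, and the lowest, replicate 3, with the CNTR libraries between them. The means were 142 ± 14.1 CPM (SD, n = 3) and 146 ± 19.9 CPM (SD, n = 4), and the log2 fold change was -0.017 with a standard error of 0.099 (edgeR, adjusted p = 0.985). The sign was not stable, with 0.042 when no surrogate variables were used, 0.098 when CNTR replicate 1 was left out and -0.13 when PAMH F3 replicate 4 was.

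Smo, the membrane protein that PTCH1 restrains, lies on chromosome 6 from 29735503 to 29761365 on the plus strand. Its levels were 120, 126 and 119 CPM in CNTR and 119, 117, 107 and 113 CPM in PAMH F3. The lowest CNTR library, replicate 3, and the highest PAMH F3 library, replicate 1, met at 119 CPM, and PAMH F3 replicates 2 to 4 lay below all CNTR libraries. The means were 122 ± 3.49 CPM (SD, n = 3) and 114 ± 5.46 CPM (SD, n = 4). The exact permutation test over the 35 divisions of the libraries gave a two-sided p of 0.0857, the smallest among the members, where 0.0286 is the smallest that the test allows. In edgeR the log2 fold change was -0.092 with a standard error of 0.063 (adjusted p = 0.781). It was -0.053 without PAMH F3 replicate 3, and -0.013 with the correction for GC content and length, which had no surrogate variables.

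Hhip, the Hedgehog-interacting protein that binds the ligands at the cell surface, lies on chromosome 8 from 79965851 to 80058006 on the minus strand. It was at 15.7, 15.5 and 14.0 CPM in CNTR and at 15.2, 19.2, 10.6 and 28.3 CPM in PAMH F3. The CNTR libraries lay close together, whereas the PAMH F3 libraries spanned the whole range, from the lowest in replicate 3 to the highest in replicate 4. The highest library held 2.67 times the level of the lowest, the widest range of the members, and the coefficient of variation over all 7 libraries, 33.1%, exceeded that of 86.5% of the genes tested, where the median was 14.3%. The log2 fold change was 0.18 with a standard error of 0.29 (edgeR, adjusted p = 0.919). It was -0.040 without PAMH F3 replicate 4, -0.082 when CNTR replicate 3 was left out and 0.43 when PAMH F3 replicate 3 was, so that single libraries set its sign.

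Gli1, the GLI factor that is itself induced by the pathway, lies on chromosome 10 from 127329882 to 127341974 on the minus strand. Its levels were 15.5, 18.4 and 14.1 CPM in CNTR and 13.5, 13.9, 10.9 and 19.0 CPM in PAMH F3. PAMH F3 replicate 4 was the highest library, while the other 3 PAMH F3 libraries lay below all CNTR libraries. The means were 16.0 ± 2.20 CPM (SD, n = 3) and 14.3 ± 3.39 CPM (SD, n = 4), and the log2 fold change was -0.16 with a standard error of 0.20 (edgeR, adjusted p = 0.885). It was -0.39 without CNTR replicate 3, -0.070 without CNTR replicate 2 and close to 0, at -0.0019, without PAMH F3 replicate 3. With the GC and length correction it was -0.021.

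Gli2, an activator of target genes, lies on chromosome 1 from 118834132 to 119053619 on the minus strand and was at 14.5, 16.2 and 12.2 CPM in CNTR and at 14.4, 12.6, 11.8 and 11.6 CPM in PAMH F3. CNTR replicate 2 was the highest library and PAMH F3 replicate 4 the lowest, and the groups overlapped between 12.2 and 14.4 CPM. The log2 fold change was -0.17 with a standard error of 0.13 (edgeR, adjusted p = 0.8). It was -0.10 without PAMH F3 replicate 3, -0.27 when CNTR replicate 3 was left out and -0.012 with the GC and length correction. Gli3, known mainly for its repressor form, lies on chromosome 13 from 15463235 to 15730026 on the plus strand and was at 9.31, 9.75 and 10.5 CPM in CNTR and at 12.4, 10.8, 9.79 and 11.3 CPM in PAMH F3. Of the PAMH F3 libraries only replicate 3 lay within the CNTR range, and the other 3 lay above it. The log2 fold change was 0.17 with a standard error of 0.12 (edgeR, adjusted p = 0.78), and the exact permutation test gave a two-sided p of 0.114.

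**Figure D2:**
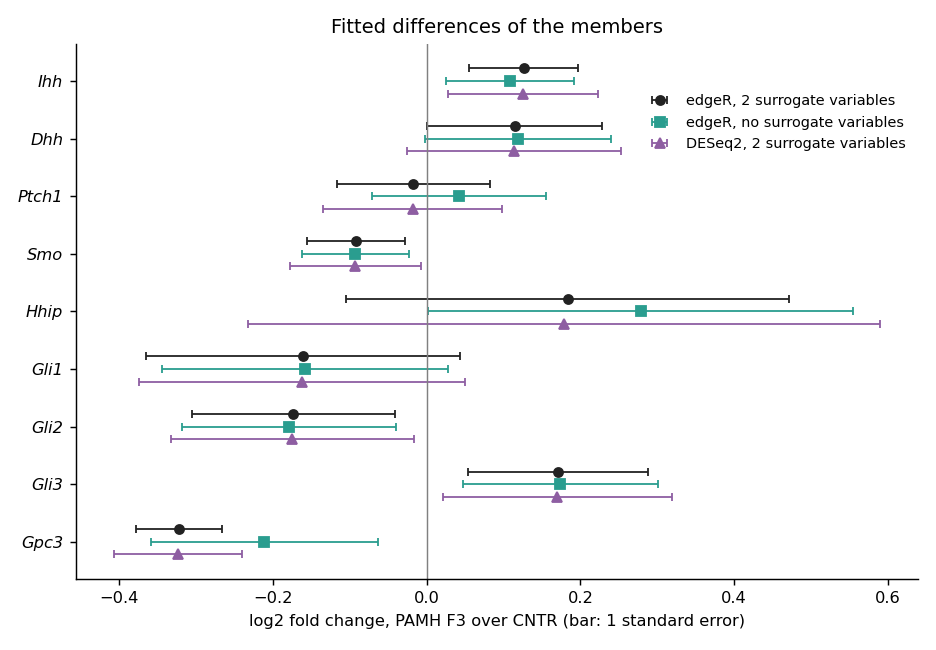
Log2 fold change of each member, PAMH F3 over CNTR, with 1 standard error as the bar, in edgeR with 2 surrogate variables, in edgeR without them and in DESeq2 with the same 2. The 3 estimates lie close together for most members, Ptch1 changes sign between them, and Gpc3 moves from -0.32 to -0.21 without surrogate variables.

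Gpc3 lies on the X chromosome from 52272426 to 52613950 on the minus strand. It is among the genes that the study called on these same libraries, so its direction here is not independent evidence. Its levels were 80.3, 50.8 and 56.9 CPM in CNTR and 58.5, 54.5, 50.4 and 52.9 CPM in PAMH F3. CNTR replicate 1 stood far above the other libraries, and the other 6 lay between 50.4 and 58.5 CPM, with both groups spread over that range. The means were 62.7 ± 15.6 CPM (SD, n = 3) and 54.1 ± 3.40 CPM (SD, n = 4), and the exact permutation test gave a two-sided p of 0.371. In edgeR its log2 fold change was -0.32 with a standard error of 0.056 (unadjusted p = 0.000649, adjusted p = 0.369). DESeq2 gave the same value of -0.32 and an adjusted p of 0.0256 with these surrogate variables. Without surrogate variables edgeR gave -0.21 (unadjusted p = 0.186).

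The difference of Gpc3 rested on CNTR replicate 1. When it was left out, the CNTR mean of the remaining 2 libraries was 53.9 CPM and the PAMH F3 mean 54.1 CPM, and the log2 fold change was 0.012 with the surrogate variables estimated again (edgeR, unadjusted p = 0.88) and 0.0092 without them (edgeR, unadjusted p = 0.925). When any other library was left out, it lay between -0.38 and -0.31 with surrogate variables. The same library was also the highest in the summed level of the 5 adipocyte markers, with 996 CPM, while the other 6 lay between 122 and 714 CPM. The next highest sum, 714 CPM in PAMH F3 replicate 3, came with the lowest Gpc3 level, and the part of adipocyte RNA in the result was not tested.

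**Figure D3:**
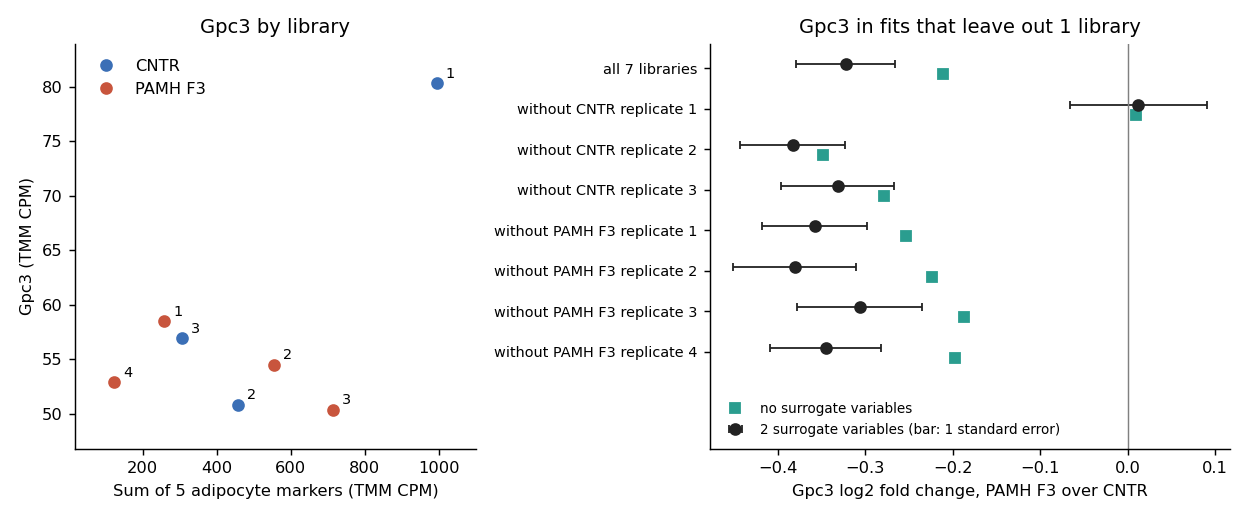
Gpc3 level against the sum of 5 adipocyte markers in each library (left, both in TMM CPM), and the Gpc3 log2 fold change with all 7 libraries and with each left out in turn (right, bar: 1 standard error). CNTR replicate 1 lies alone at 80.3 CPM, and the fold change reaches 0.012 when that library is left out.

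Levels of different genes were compared per kilobase of exon, with the exons of all transcripts of a gene joined. In CNTR ovaries, Gpc3 stood at 23.3 ± 5.79 CPM per kb (SD, n = 3) and Smo at 21.7 ± 0.621, and these neighbours in the order were not separated, since Gpc3 lay above Smo in 2 of 7 libraries. Ihh followed at 13.3 ± 0.270 CPM per kb, Ptch1 at 10.0 ± 0.996 and Dhh at 5.37 ± 0.679. In all 7 libraries Smo lay above Ihh, Ihh above Ptch1, Ptch1 above Dhh and Dhh above Gli1, without overlap of their ranges. The ligand Ihh was thus measured above Dhh in every library. The order depends on the joined exon length, which was 14185 bases over 10 transcripts for Ptch1, and no other length was tried. Of the 4399 bases of Dhh, 546 are shared with Rhebl1 and 1107 with Gm49442, so its place below Ptch1 is uncertain. Ihh and Ptch1 were separated narrowly, with a lowest Ihh value of 12.97 and a highest Ptch1 value of 12.36 CPM per kb. The transcription factors and Hhip formed the low end of the order, with Gli1 at 3.20 ± 0.439 CPM per kb, Gli2 at 2.08 ± 0.295, Hhip at 1.66 ± 0.101 and Gli3 at 1.03 ± 0.0605. Gli1 lay above Gli2 and Hhip above Gli3 in 7 of 7 libraries, although their ranges over libraries overlapped, while Gli2 lay above Hhip in 5 of 7.

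**Figure D4:**
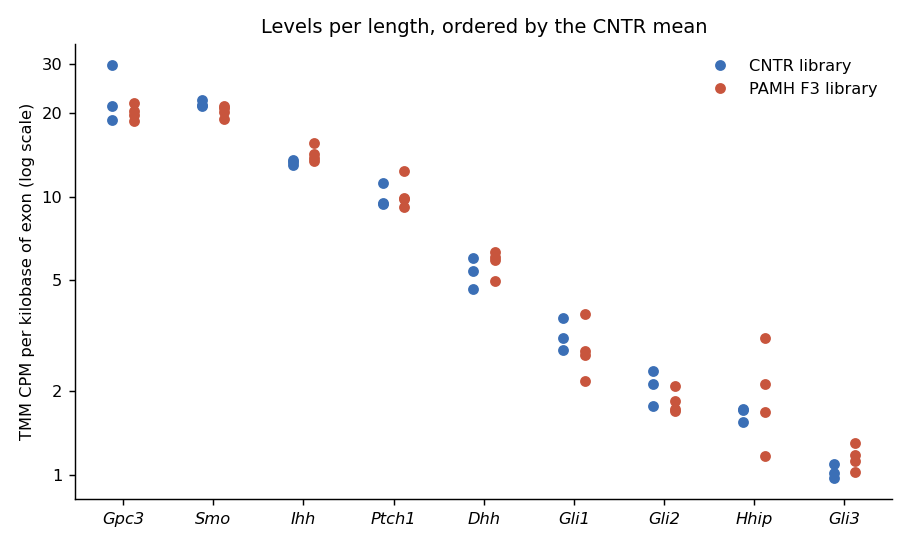
Level of each member per kilobase of exon (TMM CPM per kb, log axis) in the 3 CNTR and 4 PAMH F3 libraries, ordered by the CNTR mean. Gpc3 and Smo share the top of the order near 20 CPM per kb, and Gli3 lies lowest near 1.

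Libraries differed from each other within a group for several members together. PAMH F3 replicate 4 held the highest level of the 7 libraries for 4 members (Dhh, Ptch1, Gli1 and Hhip) and the lowest for Gli2. PAMH F3 replicate 3 held the lowest level for 5 members (Ptch1, Smo, Gli1, Hhip and Gpc3) and the highest for Ihh. Several marker sums of these libraries also lay at the ends of their ranges. PAMH F3 replicate 4 had the highest granulosa cell (4216 CPM) and oocyte sums. The largest part of its granulosa cell sum was Inha (2074 CPM). Of that list, Inhbb, Hsd17b1 and Nr5a2 were highest in this library. Inha, Fshr and Cyp19a1 were highest in CNTR replicate 3, and Amh and Foxl2 in CNTR replicate 2. The sums of PAMH F3 replicate 4 for stroma, smooth muscle (1129 CPM), oviduct epithelium, surface epithelium and adipocytes were the lowest. PAMH F3 replicate 3 had the lowest theca cell (8258 CPM), endothelium and leukocyte sums and the highest oviduct and surface epithelium sums. In that library the theca sum was mostly Hsd3b1 (4253 CPM) and Cyp11a1 (2939 CPM). Among the PAMH F3 libraries these and Lhcgr (308 CPM) were lowest there, but Cyp17a1 (175 CPM) and Star (583 CPM) were highest. The part of cell composition in the levels of the members was not tested.

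Relations between a ligand and a target, between targets, and between Gpc3 and Gli1 were computed across the 7 libraries on log2(CPM + 0.5) for 6 pairs, with exact permutation tests over all orders of the libraries. Ptch1 and Hhip, both targets and both ligand-binding, went together, with a Pearson r of 0.82 (exact permutation p = 0.0173, adjusted over the 6 pairs 0.101) and a Spearman rho of 0.93 (exact permutation p = 0.00675, adjusted 0.0405). Without the 2 libraries farthest from the median of Ptch1, r was 0.89. With group means subtracted r was 0.82 (permutation p = 0.0135, adjusted 0.0405). That p is not exact, since values with their group mean subtracted cannot be exchanged freely between the groups. Without PAMH F3 replicate 4 alone, r was 0.48. Gli1 and Hhip had an r of 0.75 (exact permutation p = 0.0522, adjusted 0.104) and a rho of 0.68 (exact permutation p = 0.11, adjusted 0.219), and r was 0.76 without the 2 libraries farthest from the median of Gli1 and 0.56 without PAMH F3 replicate 3 alone. With group means subtracted their r was 0.91 (permutation p = 0.0121, adjusted 0.0405, not exact for the same reason). Gli1 and Ptch1 had an r of 0.63 (exact permutation p = 0.137, adjusted 0.205) and a rho of 0.61 (exact permutation p = 0.167, adjusted 0.25), with an r of 0.78 without the 2 farthest libraries and 0.34 without PAMH F3 replicate 4 alone.

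Ligand and target did not go together across libraries. Ihh and Gli1 had a negative r of -0.79 (exact permutation p = 0.0337, adjusted 0.101) and a rho of -0.82 (exact permutation p = 0.0341, adjusted 0.102). Leaving out the 2 libraries farthest from the median of Ihh, PAMH F3 replicates 2 and 3, moved r to -0.35, so that the relation no longer held without them. Left out alone, replicate 3 moved r to -0.50 and replicate 2 left it at -0.79. Dhh and Gli1 had an r of -0.19 (exact permutation p = 0.675, adjusted 0.81) and a rho of 0.14 (exact permutation p = 0.783, adjusted 0.939), and r was 0.24 without the 2 farthest libraries. Gpc3 and Gli1 had an r of 0.059 (exact permutation p = 0.886, adjusted 0.886) and a rho of 0.036 (exact permutation p = 0.963, adjusted 0.963), and r was -0.86 without the 2 farthest libraries, CNTR replicate 1 and PAMH F3 replicate 3. With all 7 libraries and no centring, only the Spearman value of Ptch1 and Hhip passed 0.05 after adjustment, and no Pearson value did.

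**Figure D5:**
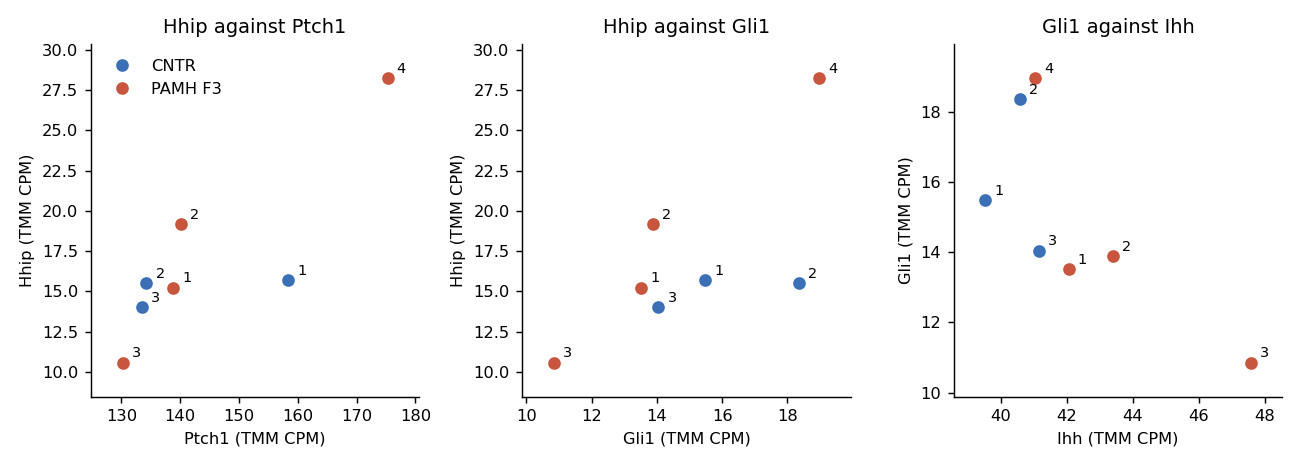
Levels of Hhip against Ptch1, Hhip against Gli1 and Gli1 against Ihh (TMM CPM) in each of the 7 libraries, with the replicate number beside each point. PAMH F3 replicate 4 is high and replicate 3 low in both panels of Hhip, whereas in the panel of Gli1 against Ihh replicate 3 has the highest Ihh and the lowest Gli1.

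Promoters are shown for Ptch1 and Hhip, the pair with the highest r. They are the 250 bases before the RefSeq gene start (RefSeq, GRCm38.p6), read 5′ to 3′ along each gene. Capitals mark each CG dinucleotide. The Ptch1 sequence is chr13:63565736-63565985 on the minus strand, within the GENCODE gene since other transcripts of Ptch1 start further upstream, and the Hhip sequence is chr8:80058009-80058258 on the minus strand.
Ptch1: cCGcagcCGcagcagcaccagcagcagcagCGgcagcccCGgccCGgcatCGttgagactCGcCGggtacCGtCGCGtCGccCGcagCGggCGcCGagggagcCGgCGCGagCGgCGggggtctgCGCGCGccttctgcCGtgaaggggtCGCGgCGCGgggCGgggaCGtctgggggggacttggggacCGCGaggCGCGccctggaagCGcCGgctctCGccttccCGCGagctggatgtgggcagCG
Hhip: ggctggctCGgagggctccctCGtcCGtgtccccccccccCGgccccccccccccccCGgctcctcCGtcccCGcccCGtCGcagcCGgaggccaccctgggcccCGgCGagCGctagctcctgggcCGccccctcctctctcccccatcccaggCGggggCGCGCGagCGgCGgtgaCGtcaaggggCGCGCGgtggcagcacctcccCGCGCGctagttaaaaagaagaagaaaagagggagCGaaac
The Ptch1 sequence held 41 CG dinucleotides at 78.4% GC, a number that 1.09% of all RefSeq promoters reach. The Hhip sequence held 28 at 76% GC, which 7.61% reach. The GLI binding motif GACCACCCA was searched on both strands in the window from 250 bases before to 50 after the gene start, which the RefSeq table gave for 8 of the 9 members. With up to 1 mismatch it was found in 0 of the 8, against 6.74% of 32851 promoters of that length, and without a mismatch in 0.253% of them. This says only that these letters are not in these windows.

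The other genes of the pathway were read from a list of 51 genes, of which 48 were tested and Shh, Foxl1 and Gpc5 were not, for low counts. Of the 48, 0 passed the adjusted threshold in edgeR and 0 in DESeq2. In edgeR 24 were higher and 24 lower in PAMH F3, with a median log2 fold change of 0.015. The unadjusted p was under 0.05 for 2 that were higher (Ccnd1 and Gpc4) and 1 that was lower (Gpc1). Over all genes tested, 3.89% were higher and 3.74% lower at that p. The groups did not overlap for 2 higher (Ift172 and Csnk1a1) and 1 lower (Snai1), against 1.85% and 2.4% of all genes tested. For Ift172 and Snai1 the exact permutation test gave its smallest possible two-sided p, 0.0286, without adjustment over the list.

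Among 6 tested genes of ligand release, the smallest p values belonged to Disp2, which encodes a dispatched family protein (log2 fold change -0.36), and Scube1, a secreted protein (0.13, or -0.0069 without PAMH F3 replicate 4). Among 5 co-receptors, Gas1, which binds ligand together with PTCH1, had the smallest p, and its levels were 59.6, 54.8 and 57.1 CPM in CNTR and 56.8, 51.2, 46.6 and 34.3 CPM in PAMH F3. Only PAMH F3 replicate 1 lay within the CNTR range of Gas1 and PAMH F3 replicate 4 was far below, with a log2 fold change of -0.31 (edgeR, adjusted p = 0.714) that was -0.18 without that library. The endocytic receptor Lrp2 was at 34.7, 33.4 and 12.9 CPM in CNTR and at 39.8, 34.8, 34.6 and 20.8 CPM in PAMH F3. CNTR replicate 3 was the lowest library, and the log2 fold change of 0.29 (edgeR, adjusted p = 0.773) was 0.030 without it.

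Among 18 genes of signal transduction, 11 were higher and 7 lower. Gpr161, a receptor of the cilium that restrains the pathway, was at 15, 16.6 and 19.4 CPM in CNTR and at 19.7, 19.6, 17.1 and 19.8 CPM in PAMH F3, so that 3 PAMH F3 libraries lay above all CNTR libraries (log2 fold change 0.21, edgeR adjusted p = 0.654, or 0.085 without CNTR replicate 1). Prkacb, a catalytic subunit of protein kinase A, was at 0.073 on the same scale (edgeR, adjusted p = 0.789) and between 0.030 and 0.15 with any single library left out. Among 7 genes of transport in the primary cilium, where vertebrate Hedgehog signalling takes place, 5 were higher and 2 lower. Ift172, a subunit of the intraflagellar transport complex, was at 109, 104 and 102 CPM in CNTR and at 112, 118, 111 and 121 CPM in PAMH F3. All PAMH F3 libraries lay above all CNTR libraries (exact permutation test, two-sided p = 0.0286), with a log2 fold change of 0.13 (edgeR, adjusted p = 0.676), and Ift88 stood at 0.095 (edgeR, adjusted p = 0.747), or at 0.24 without CNTR replicate 1.

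Among 9 tested target genes, 3 were higher and 6 lower. Ccnd1, which encodes cyclin D1, was at 85.6, 83.1 and 56.9 CPM in CNTR and at 83.5, 89.6, 126 and 69.5 CPM in PAMH F3, with the groups overlapping (log2 fold change 0.29, edgeR unadjusted p = 0.0163, adjusted p = 0.578). Its highest library was PAMH F3 replicate 3, without which it stood at 0.14 (edgeR, unadjusted p = 0.0685), and which is also the library with the lowest levels of Ptch1, Gli1 and Hhip. Snai1, a transcriptional repressor, was at 2.80, 5.82 and 3.19 CPM in CNTR and at 2.61, 1.96, 2.71 and 2.26 CPM in PAMH F3. All PAMH F3 libraries of Snai1 lay below all CNTR libraries (exact permutation test, two-sided p = 0.0286), with a log2 fold change of -0.48 (edgeR, adjusted p = 0.681) that lay between -0.86 and -0.31 with any single library left out. Of the other glypicans, Gpc1 had a CNTR mean of 68.0 ± 13.8 CPM (SD, n = 3) and a PAMH F3 mean of 51.3 ± 6.69 CPM (SD, n = 4), or -0.35 on the log2 scale (edgeR, unadjusted p = 0.0495, adjusted p = 0.654), and Gpc4 had means of 118 ± 21.2 and 127 ± 7.87 CPM, or 0.14 on the same scale (edgeR, unadjusted p = 0.05, adjusted p = 0.654). The value of Gpc4 was 0.038 without CNTR replicate 1, and that of Gpc1 was -0.23 without PAMH F3 replicate 3.

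The genes whose pattern over the 7 libraries was most like a member were the 5 with the highest Pearson r among all genes tested, given as a description. For Gli1 they were Hhipl2 (0.96), Gm47163 (0.94), Nup214 (0.93), Tnfaip1 (0.93) and Slc11a2 (0.92). In the same order of likeness to Gli1, over the 18779 genes tested, Hhip stood at rank 286 and Ptch1 at rank 802. Both targets lay near the top of the order, though many other genes lay closer to Gli1. For Ihh they were Oscar, Gm28151, Clybl and Stk39 (each at 0.94) and Fam213a (0.93), of which Fam213a moved to 0.65 without PAMH F3 replicate 3. For Gpc3 they were Dmp1 (0.99), Gm21284 (0.99), Aox3 (0.97), Nampt (0.97) and Pyroxd1 (0.96). Without CNTR replicate 1 the r of Gpc3 with Aox3 was 0.74 and with Nampt 0.82. Hhipl2, Gm47163, Oscar, Gm21284 and Dmp1 are genes of few reads, with means of at most 1.25 CPM in either group.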

How the data were processed

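The authors mapped single reads of stranded poly(A) libraries to mm10 with STAR 2.5.3a and counted uniquely aligned reads per gene with HTSeq 0.6.1p1 in union mode. The Ensembl release and the strand setting of the counting are not given in the sources used here. The deposited values are raw counts without normalization, and the 5 summary lines of each library were left out. Of 55487 gene identifiers, 55394 were matched to GENCODE M21.

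Groups were compared on these counts with edgeR 4.0.16, run in R 4.3.3 (TMM factors, filterByExpr with a minimum count of 10, quasi-likelihood F test) on the group and 2 surrogate variables from svaseq (sva 3.50.0). The number 2 was estimated by num.sv with 20 permutations and seed 1. Adjusted p-values are Benjamini-Hochberg values over 18779 genes, with a threshold of 0.05. Single values and correlations were tested with exact permutation tests on log2(CPM + 0.5). For correlations with group means subtracted the permutation p is not exact. Alternatives were DESeq2 1.42.0, 0, 1 or 3 surrogate variables, other size factors and filters, robust fitting, a replicate block, GC and length correction, and leaving out each library.

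The members, the pathway and marker lists and the tests were chosen with earlier results of these data known. Apart from the members, the genes named were, in each pathway list, the 2 with the smallest unadjusted p, and the 5 with the highest r to Gli1, Ihh and Gpc3. Csnk1a1 and the markers Inhbb, Hsd17b1, Foxl2 and Amh were named after their values were seen, and the repeat of these r values without each library was also chosen after seeing the data.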

Additional observations from a re-analysis of the deposited data

Results flagged for a closer look

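Of 21 groups of 4 PAMH F3 values examined for the members and the named pathway genes, 1 held a library far from the others relative to the range of its group. Gpr161 was at 17.1 CPM in PAMH F3 replicate 3, while the other 3 PAMH F3 libraries lay between 19.6 and 19.8 CPM. Chance alone marks about 1 in 20 such groups.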

How the results depend on the processing

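Across the alternatives, 410 values counted as the same, 27 changed sign, 10 moved and 3 passed the threshold only in the alternative. Among these 3 were the correlations of Gli1 with Hhip and of Ptch1 with Hhip after subtracting group means, whose permutation p is not exact. For fits, mean differences and correlations over all 7 libraries, the same meant an equal direction and side of the threshold. For counts of genes it meant an equal count. For correlations with libraries left out no p was checked, and the same meant an equal sign and a change in r below a fixed limit. An r of 0.34 against 0.63 for Gli1 and Ptch1 counted as the same, and 0.48 against 0.82 for Ptch1 and Hhip as moved. The number of genes called, 0 in edgeR with 2 surrogate variables, was 101 in DESeq2 with the same surrogate variables, 6 in DESeq2 without them and 8 without a filter on low counts. It lay between 0 and 37 when a library was left out, the higher value without CNTR replicate 1, and was 31 when PAMH F3 replicate 1 was left out, and between 0 and 2 when no surrogate variables were used as well. The number of members called, 0, became 1 in DESeq2 with the same surrogate variables, through Gpc3 (log2 fold change -0.32, DESeq2 adjusted p = 0.0256). The cause was not tested.

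The log2 fold change of Ptch1, -0.017, was 0.042 without surrogate variables, 0.031 with 1 surrogate variable, 0.042 in DESeq2 without surrogate variables and 0.023 with the GC and length correction. With each library left out it ranged from -0.13 to 0.098 for Ptch1, from -0.082 to 0.43 for Hhip and from -0.38 to 0.012 for Gpc3. Without surrogate variables the same ranges were -0.053 to 0.13 for Ptch1, with 0.064, 0.053 and 0.085 without PAMH F3 replicates 1, 2 and 3, -0.0037 to 0.46 for Hhip, and -0.35 to 0.0092 for Gpc3, the upper value without CNTR replicate 1. The difference of mean log2 CPM ranged from -0.054 to 0.12 for Ptch1, from -0.046 to 0.41 for Hhip and from -0.32 to 0.0054 for Gpc3. The other 6 members kept their sign in every alternative run, but the GC and length correction brought Smo to -0.013, Gli1 to -0.021, Gli2 to -0.012 and Ihh to 0.39. With a library left out, Ihh ranged from 0.068 to 0.17, Dhh from 0.044 to 0.19, Smo from -0.12 to -0.053, Gli1 from -0.39 to -0.0019, Gli2 from -0.27 to -0.10 and Gli3 from 0.13 to 0.22.

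Correlations moved when the 2 farthest libraries were left out, to -0.35 for Ihh and Gli1, to 0.24 for Dhh and Gli1 and to -0.86 for Gpc3 and Gli1. With group means subtracted, r was 0.91 for Gli1 and Hhip, 0.82 for Ptch1 and Hhip and -0.11 for Gpc3 and Gli1. Leaving out single libraries gave -0.65 to 0.26 for Dhh and Gli1, 0.48 to 0.92 for Ptch1 and Hhip, and -0.28 to 0.27 for Gpc3 and Gli1. The replicate numbers are shared between groups, but nothing in the labels pairs the libraries, and the deviations of same-numbered libraries correlated at 0.096, 0.097 and -0.25. With a replicate block, which takes PAMH F3 replicate 4 out of the comparison, 0 genes were called in edgeR (442 had an unadjusted p under 0.05) and the log2 fold change of Hhip was -0.040. Set against the fit without surrogate variables and without the block, the block turned the sign of Hhip (0.28) and of Ptch1 (from 0.042 to -0.049) and changed no call of a member.

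With 3 and 4 libraries, exact permutation tests could not give a two-sided p below 0.0286, and a member such as Hhip, with a standard error of 0.29, could differ by more than its log2 fold change of 0.18 without passing the threshold. Reads that did not map uniquely, which were not counted, made up between 37.7% and 40.7% of the alignments.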
